A study of Capra hircus with 2 samples.

Results

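The invariant chain gene CD74 and the class I light chain gene B2M stood higher in 6-month than in fetal goat back muscle. The macrophage marker CD68 stood lower, but 35.1% of all transcripts compared were called lower by the same 2-fold rule. CD14 could not be told apart between the stages at its low read number. These 4 genes were chosen by accession, as the cattle RefSeq transcripts of B2M (NM_173893), CD74 (NM_001034735), CD14 (NM_174008) and CD68 (NM_001045902). All 4 had reads at both stages, out of 11663 transcript accessions with reads at either stage. The symbols were given along with the accessions. The deposited lists themselves carry no gene names.

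The muscle was longissimus thoracis of Chinese Xuhuai goats (Capra hircus), with 1 library from animals aged 6 months and 1 from fetuses at day 90 of a 150-day gestation. The labels name no genotype, treatment or agent. The only text on collection is the same for both samples and tells of embryos taken from slaughtered goats, which leaves the sampling of the older muscle undescribed. The number of animals behind a library is not stated in the labels, and with 1 library a stage none of the differences below has a replicate check. The 6-month library held 9144138 unique reads and the fetal library 12811117. Other accessions could not be paired with symbols, so neither the muscle identity of the libraries nor markers of blood, vessel or other leukocyte origin were checked, and their part in the results was not tested.

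Antigen presentation runs along a class I and a class II route. On nearly all nucleated cells, B2M encodes the light chain that holds the class I molecule together while it shows peptides from inside the cell to cytotoxic T cells. CD74 encodes the invariant chain, which blocks the groove of newly made class II molecules and steers them to the endosome, and it is chiefly a gene of dendritic cells, B cells and macrophages. CD14 encodes a co-receptor for bacterial lipopolysaccharide on monocytes and macrophages, and CD68 a glycoprotein of the lysosomal membrane that is widely used to mark macrophages. In skeletal muscle such cells lie between the fibres, and the fibres themselves are known to carry little class I molecule at rest.

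B2M was the most abundant of the 4 genes at both stages. It had 2474 reads at 6 months, an RPKM (reads per kilobase of transcript and per 1000000 unique reads) of 235 with an exact Poisson 95% interval of 226 to 245. In the fetal library it had 1227 reads and an RPKM of 83.3 (78.7 to 88.1). The intervals were far apart, though they cover counting error only and say nothing of the spread between goats. The share of reads on B2M was 2.82-fold higher at 6 months, with an exact conditional binomial 95% interval of 2.64 to 3.03. On the scale of log2(RPKM + 1), the difference of 6 months minus fetal was 1.49. Among the listed accessions B2M ranked 324 of 10850 by RPKM at 6 months, against 871 of 11393 in fetal muscle.

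Of the 4 genes, CD74 had the widest gap between the stages. It had 489 reads and an RPKM of 38.9 (95% interval 35.6 to 42.6) at 6 months, against 176 reads and an RPKM of 10.01 (8.58 to 11.6) in the fetal library. The reads took a 3.89-fold higher share of the 6-month library (3.27 to 4.65), and the log2(RPKM + 1) difference was 1.86. The gene that holds back the class II groove thus lay in the same direction as the class I light chain, and further out. By RPKM its rank was 1514 at 6 months, where 86.0% of listed accessions lay lower, against 5136 in the fetal library, where 54.9% did.

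CD68 lay the other way. It had 84 reads and an RPKM of 6.36 (5.07 to 7.88) at 6 months, against 313 reads and an RPKM of 16.9 (15.1 to 18.9) in the fetal library. The read share at 6 months was 0.376 of the fetal share (0.292 to 0.480), and the log2(RPKM + 1) difference was -1.28. In the fetal library the lysosomal marker stood above CD74 in RPKM, whereas at 6 months it stood below CD74. Its rank by RPKM was 5004 at 6 months, against 3709 in fetal muscle.

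CD14, the lipopolysaccharide co-receptor, was close to the limit of what these libraries measure. It had 14 reads and an RPKM of 1.15 (0.631 to 1.94) at 6 months, against 27 reads and an RPKM of 1.59 (1.05 to 2.31) in the fetal library. The intervals overlapped widely. The read share at 6 months was 0.726 of the fetal share, with an interval of 0.352 to 1.43 that holds 1, so no difference was detectable at this depth. The log2(RPKM + 1) difference of -0.27 changed sign with the scaling, to 0.07 after centring on the median ratio.

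**Figure D1:**
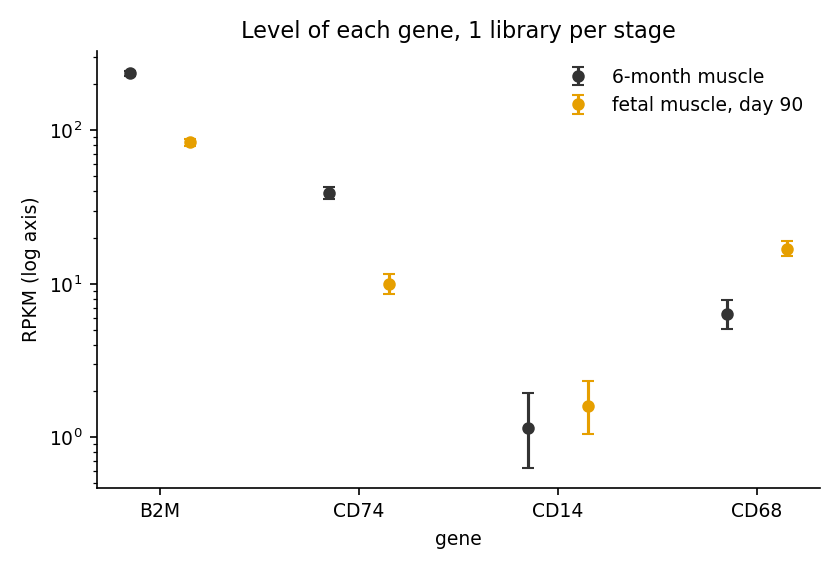
RPKM (log axis) of B2M, CD74, CD14 and CD68 in the 6-month and the fetal library, with exact Poisson 95% intervals of the reads (counting error only, 1 library a stage). The 6-month point lies above the fetal one for B2M (235 and 83.3) and CD74 (38.9 and 10.01) and below it for CD68 (6.36 and 16.9), while the intervals of CD14 overlap.

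Because the order of levels rests on RPKM, it is per length of the listed cattle transcript. At 6 months it ran B2M, CD74, CD68 and CD14, with no neighbours whose intervals touched. In the fetal library it ran B2M, CD68, CD74 and CD14, again with separate intervals. CD74 and CD68 had changed places.

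These values were set against all accessions with an RPKM of at least 1 at either stage, of which there were 9705. A transcript was called higher or lower at 6 months when its log2(RPKM + 1) difference reached 1, about 2-fold. By this rule 2 of the 4 genes, B2M and CD74, were higher at 6 months, against 9.46% of all accessions, and 1, CD68, was lower, against 35.1% of all accessions. Being lower at 6 months was thus common, and the call of CD68 did not set it apart. Of all accessions, 74.5% had a difference above that of CD68 and 25.5% one below it. For CD74, 3.93% of accessions had a larger difference, and for B2M 5.63% did. The median difference was -0.61 over all accessions compared. Over the 4 genes it was 0.61, a value between CD14 (-0.27) and B2M (1.49) that describes neither.

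The lean toward the fetal library also varied with the level of a transcript, without a steady trend. It was strongest at a mean RPKM of 1000 or more. There the median log2 ratio was -1.55 over the 128 transcripts that reached an RPKM of 1 at both stages. Under 10, the band of CD14, the median difference in log2(RPKM + 1) was -0.73 over 4934 transcripts. Among the 592 accessions with a mean RPKM of 100 to 1000, the band of B2M, the median difference was 0.07, and 19.3% had a larger difference than B2M. Among the 4051 accessions at 10 to 100, which hold both CD74 and CD68, the median difference was -0.47. There 4.57% of accessions lay above CD74 and 24.8% lay below CD68. B2M was therefore less far out among transcripts of its own level than among all, and CD74 about as far.

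**Figure D2:**
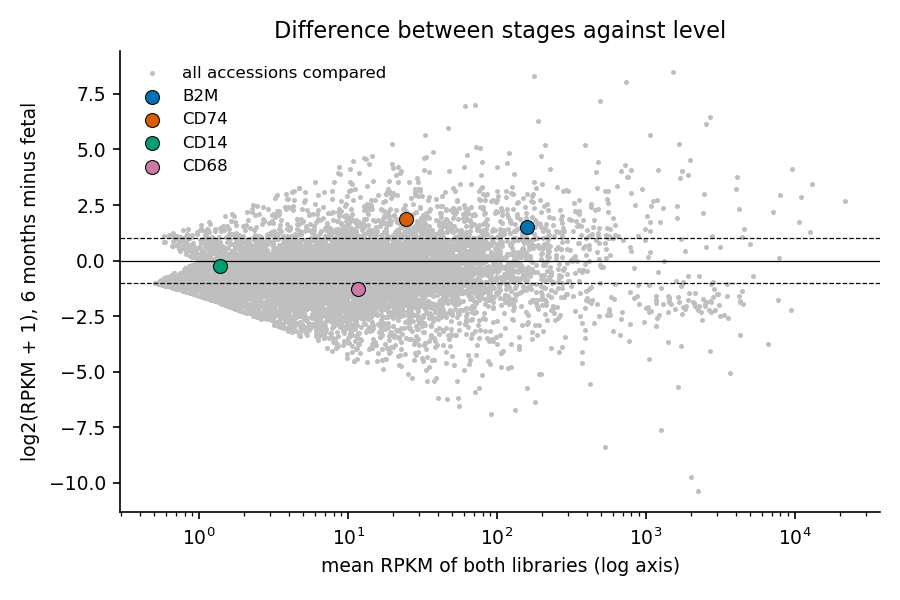
Difference in log2(RPKM + 1), 6 months minus fetal, against the mean RPKM of both libraries (log axis) for the 9705 accessions compared (grey) and the 4 genes (coloured), with dashed lines at the call threshold of 1 in either direction. B2M (1.49) and CD74 (1.86) lie above the upper line, CD68 (-1.28) just below the lower one and CD14 (-0.27) between them.

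RPKM is relative to the library total, and the median log2 ratio of 6 months to fetal was -0.58 over the 8201 accessions that reached an RPKM of 1 at both stages. Relative to that shift, the 6-month share was 4.22-fold the fetal one for B2M (3.94 to 4.52) and 5.81-fold for CD74 (4.88 to 6.95). For CD68 it was 0.561 of the fetal share (0.436 to 0.716), still below 1, but the log2(RPKM + 1) difference of -0.76 no longer reached the threshold. For CD14 it was 1.08 (0.526 to 2.14). After this centring 16.8% of all accessions were called higher at 6 months and 20.9% lower, and of the 4 genes B2M and CD74 were called higher and none lower. B2M was higher at 6 months with or without centring. Only the increase of its difference, from 1.49 to 2.06 log2 units with this centring, depended on using 1 shift for all levels. In its own band, at a mean RPKM of 100 to 1000, the median log2 ratio was 0.07. Centring within bands left B2M at 1.41 log2 units, against 1.49 uncentred, and put CD74 at 2.32.

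A factor shared by a whole library cancels in the ratio between its genes, so the 6 pairs were also compared as ratios of RPKM. Centring within bands would not cancel for genes of different bands, and was not applied to these ratios. The largest of the 6 changes was between the class II chaperone and the lysosomal marker. CD74 stood at 6.12 times the RPKM of CD68 at 6 months and at 0.591 times in the fetal library, a 10.4-fold change in the ratio (exact conditional 95% interval 7.62 to 14.1). B2M stood at 37.0 times CD68 at 6 months and 4.92 times in the fetal library, a 7.51-fold change (5.82 to 9.77). Against CD14, whose few reads widen the intervals, the ratio of CD74 was 5.36-fold higher at 6 months (2.64 to 11.3) and that of B2M 3.89-fold higher (1.96 to 8.05). Per covered base, where the narrower coverage of CD14 at 6 months counts, these changes were 3.12-fold for CD74 and 2.21-fold for B2M.

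The ratio of B2M to CD74 was 6.04 at 6 months, against 8.32 in fetal muscle, or 0.726 of the fetal value (0.599 to 0.876), since CD74 differed more than B2M. The ratio of the macrophage markers CD14 to CD68 was 0.181 at 6 months, against 0.0939 in fetal muscle, a 1.93-fold change whose interval of 0.893 to 4.01 holds 1. Per covered base the CD14 to CD68 change was 3.01-fold, with the same limit from the few reads of CD14. B2M stood at 13.1 times CD74 per covered base at 6 months, against 18.4 times in fetal muscle. The interval of the RPKM ratio, for counting error only, lay clear of 1 in 5 of the 6 pairs. How often pairs of other transcripts would do so was not computed, so this count does not set the 4 genes apart. The changes in ratio also follow from the read shares given above. The pairs share genes and are not independent. As the tissue was measured whole, fewer cells of a type and less RNA of a gene per cell cannot be told apart.

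**Figure D3:**
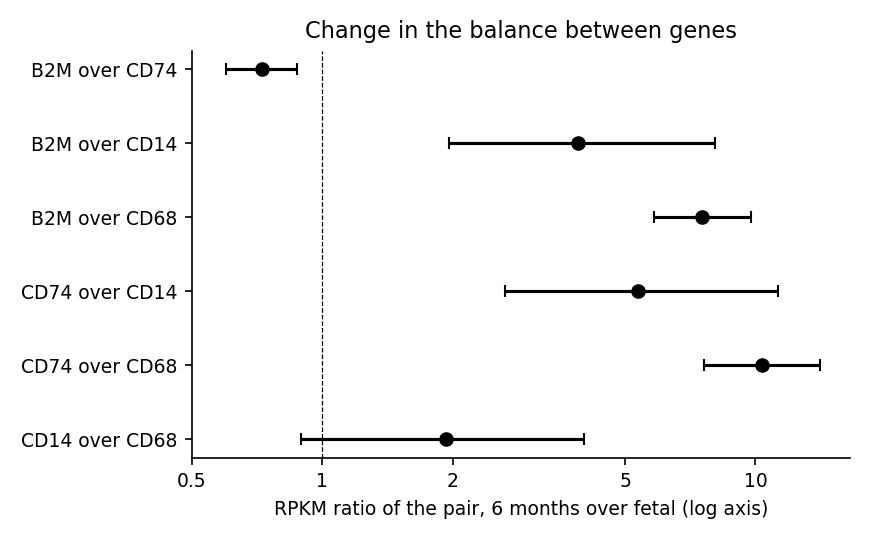
Ratio of the RPKM of 2 genes at 6 months divided by the same ratio in the fetal library (log axis), with exact conditional 95% intervals (counting error only). CD74 over CD68 shows the largest change of the 6 pairs, 10.4-fold, and CD14 over CD68 is the pair whose interval crosses the dashed line at 1.

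How much of each transcript the reads covered bears on these levels, because RPKM divides by the whole listed length. B2M was the odd one. Its reads fell on 28.8% of the 1150 bases at 6 months and 28.1% in fetal muscle, that is on 331 and 323 bases, although the reads would cover each base 194 times over at 6 months and 96.0 times in the fetal library if spread evenly. Of 387 accessions read within 2-fold of the same depth at 6 months, 0 had a lower coverage, and in the fetal library 1 of 1263 did. These accessions had a median coverage of 91.2% at 6 months, against 89.9% in the fetal library. Counted over its covered bases alone, B2M had an RPKM of 817 at 6 months, against 296 in fetal muscle, several times the deposited levels. The difference between stages was hardly touched, at 1.46 on the log2 scale against 1.49.

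CD74 was covered over 62.2% of its 1373 bases at both stages, 854 bases each time, although its reads numbered 489 at 6 months, against 176 in fetal muscle. At comparable depth 3.87% of accessions had lower coverage at 6 months and 10.4% in the fetal library. CD68 was covered over 68.0% of its 1444 bases at 6 months and 75.1% in the fetal library, nearer to the medians of 74.7% and 84.8% at like depth. For CD14, of 1327 bases, coverage was 37.5% at 6 months, against 64.4% in fetal muscle, where it had more reads. Accessions of like depth had a median of 45.01% at 6 months and of 58.6% in the fetal library. Where the covered stretches lie is not recorded in the lists.

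**Figure D4:**
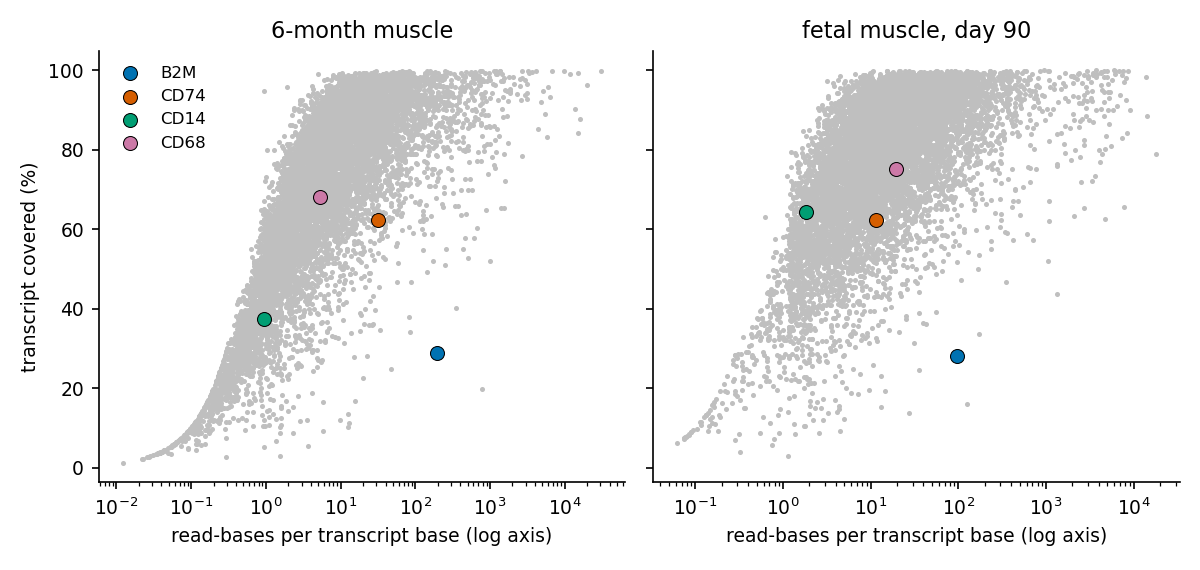
Percentage of each transcript covered by reads against its read depth (reads times 90 bases, divided by transcript length, log axis) in the 6-month library (left) and the fetal library (right), for the accessions compared (grey) and the 4 genes (coloured). B2M lies far below other transcripts of its depth in both libraries, at 28.8% and 28.1%, and CD74 sits at 62.2% in both.

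Transcripts with levels like these were few for B2M and CD74 and many for CD68 and CD14. With both log2(RPKM + 1) values within 0.25 of the gene's own, there were 8 accessions for B2M, 15 for CD74, 137 for CD68 and 145 for CD14. Closest to B2M was NM_001076281, with an RPKM of 233 at 6 months, against 83.8 in fetal muscle, and closest to CD74 was NM_001102276, with 38.8 and 9.98. Closest to CD68 was NM_001015661, with 6.37 at 6 months and 16.8 in the fetal library. These accessions carry no gene name in the lists, and with only 2 libraries such likeness rests on 2 values.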

How the data were processed

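The deposited lists give, per the file headers, the count of unique reads, the length, the coverage percent and the RPKM of each transcript accession as the authors made them. Aligner, counting rules, strand, build and origin of the transcripts were not given in the sources used here. Deposited counts summed to the header totals, an absent accession was taken as 0 reads, and the deposited RPKM was recovered from the counts for all 10850 accessions at 6 months and all 11393 in the fetal library, within 1 part in 1000000. Of 11663 accessions, 0 were found in the goat RefSeq gene table (ARS1.2), so wider lists of antigen presentation, leukocyte and other cell types could not be used, and no position or sequence is given.

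The 4 genes and the lists were chosen with earlier results of these data known, and all 4 genes are named by rule. Differences were log2(RPKM + 1) at 6 months minus fetal. With 1 library per stage, no p-value was computed. Intervals (exact Poisson, exact conditional, 95%) cover counting error only, as reads without molecular identifiers are not independent molecules. Reads of 90 bases were taken from accessions with 1 read. The calling rule was tested on simulated data holding counting error only, which gives no rate of false calls for these libraries. Alternatives varied pseudocount, minimum, scaling, threshold and length. The work used SciPy 1.17.1, NumPy 2.4.6 and pandas 2.3.3 in Python 3.11.15, with matplotlib 3.10.9 for plots.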

Additional observations from a re-analysis of the deposited data

How the results depend on the processing

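The direction of B2M, CD74 and CD68 was the same under all 12 alternatives, 2 of them (centring within bands of mean RPKM, and levels over covered bases) chosen after the data were seen. A changed pseudocount, minimum RPKM, minimum of reads or threshold cannot turn a direction. Only the scalings, the centrings and the levels over covered bases could have done so. B2M ranged from 1.41 to 2.06 and CD74 from 1.55 to 2.41 log2 units, 6 months minus fetal, CD68 from -1.40 to -0.76 and CD14 from -0.43 to 0.23. B2M was at 1.41 with centring within bands. It became 1.59 with TPM scaling, 1.72 with totals without the 50 most abundant accessions, and 2.06 with centring on the median or on the trimmed mean ratio. CD74 became 1.55 with a pseudocount of 5, 2.40 and 2.41 with those centrings and 2.32 with centring within bands. CD68 lost its call with a pseudocount of 5 (-0.95), both centrings (-0.76 each) and centring within bands (-0.84). A threshold of 2 log2 units ended the calls of B2M (1.49), CD74 (1.86) and CD68 (-1.28) by construction. CD14 was called under none of the 11 alternatives that kept it, and an RPKM minimum of 5 left it out. Over all accessions, those higher at 6 months numbered 918, against 1629 and 1632 with both centrings and 339 with the threshold of 2. Those lower numbered 3411, against 1811 with a pseudocount of 5, 2033 and 2027 with the centrings and 1051 with the threshold of 2. Per covered base the change in ratio kept its direction in all 6 pairs, but its size moved by over 1.5 times in the 3 pairs with CD14, to 2.21-fold for B2M over CD14 (3.89 per length), 3.12-fold for CD74 over CD14 (5.36) and 3.01-fold for CD14 over CD68 (1.93). These 3 moves rest on the coverage of CD14, which depends on its few reads. No replicate could be left out, and no paired analysis was possible because each stage has 1 library. Depth limits CD14 above all, with 14 and 27 reads.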
